A study of Drosophila melanogaster with 9 samples.

Results

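The comparison sets wing imaginal discs of *Drosophila melanogaster* against BG3 cells that had a mock RNAi treatment. Its members were chosen by their labels alone and are 6 of the 9 arrays in the series, 3 wing disc and 3 Mock RNAi arrays. The 3 arrays of BG3 cells after RNAi against Polyhomeotic (Ph RNAi) took no part in the fit. The study asked what cohesin and the Polycomb complex PRC1 do at silenced and at active genes, and the wing disc arrays gave the expression level of control discs. The discs came from late last-instar *yw* larvae of both sexes, and each replicate pooled 12 to 15 discs. BG3 (ML-DmBG3) is an established line from the larval central nervous system, it is male, and the cells grew in medium with serum and insulin. The labels name no dsRNA for the Mock RNAi cells. They call the replicates of both groups biological and say no more, so a p-value here reflects how these arrays varied and no wider spread.

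The wing disc is a sac of epithelium that grows in the larva and folds out at metamorphosis into the wing and the back of the thorax. Selector genes divide it into anterior and posterior and into dorsal and ventral compartments, and signals made at the borders (Hedgehog, Decapentaplegic, Notch ligands and Wnts) set the fate of the pouch, hinge and notum. A few muscle precursors and tracheal cells lie on its inner face. The steroid hormone ecdysone ends larval life and starts the folding of the disc and the making of cuticle. BG3 cells are single cultured cells of neural origin, with no such compartments.

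Each array reports messenger RNA as log2 values of probe sets near the 3′ end of a transcript. The authors normalized the wing disc arrays apart from the BG3 arrays, so the 6 arrays were given 1 common distribution (quantile normalization), and every level below is on that common log2 scale. The values fall into a lower mode, where a level carries little information, and an upper mode. The boundary between them was set for each array at the lowest density between the modes. It lay at 3.31 to 4.37 on the common scale and was lower in every wing disc array than in any Mock RNAi array. The disc values of the gene *phyl*, 3.82 to 4.0, were thus above the boundary, while 3.86 for *inv* in Mock RNAi replicate 3 was below it. The counts of restricted genes in each direction rest on these unequal cuts. A gene was called when limma gave an adjusted p under 0.05, the difference was at least 2-fold (1 on the log2 scale), and all 3 arrays of the higher tissue lay above the boundary. A called gene is named restricted to a tissue when all 3 arrays of the other tissue lay below it. The size of the difference of a restricted gene depends on the background correction, so folds are given only for genes above the boundary in both tissues. All differences are wing disc minus Mock RNAi, with limma's SE.

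The groups differ in more than tissue. The labels give MicroPrep columns for disc RNA and MiniPrep columns for BG3 RNA, whereas the methods text names 1 kind for both. The sexes differ and the arrays were normalized apart, and neither of these, nor a difference in columns, can be told apart from tissue here. The array's own controls gave more signal at the 3′ than at the 5′ end of a transcript in every array, and more so in discs. For actin the 3′ minus 5′ signal was 3.2 ± 0.12 in wing disc and 2.01 ± 0.26 in Mock RNAi arrays, and for eIF-4a it was 5.87 ± 1.05 in wing disc and 3.03 ± 0.37 in Mock RNAi arrays (SD, n = 3 each). The exact permutation test, two-sided, gave p = 0.1 for actin, GAPDH and eIF-4a, the smallest p that 3 against 3 arrays allow, and the part of RNA quality in the results below was not tested. Correlations over probe sets were 0.9965 to 0.9982 within wing disc, 0.9917 to 0.9971 within Mock RNAi and 0.875 to 0.8798 between them.

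The 3 disc pools were not alike in every gene. Of 5 measured markers of fat body, the larval storage organ, 4 were highest in wing disc replicate 1, while *Lpin* was below the boundary in all 6 arrays. *Lsp2*, a larval serum storage protein, had 9.70, 6.26 and 2.67 in wing disc replicates 1, 2 and 3, against 1.29, 1.32 and 1.42 in Mock RNAi. *Fbp1*, a fat body receptor for storage proteins, had 8.27, 3.33 and 1.48 in wing disc, against 1.59, 1.72 and 2.10 in Mock RNAi. The summed linear level of the 5 measured fat body markers ran from 20.9 to 1710 over the wing disc arrays and from 19.5 to 22.8 over the Mock RNAi arrays, and none of the 5 was called. In all, 13 genes were at least 4-fold higher in wing disc replicate 1 than in replicate 3 with replicate 2 between them, among them *apolpp* and *Obp99b*, and 1 of the 13 was called higher. Another 8 genes had the opposite order. These 8 were named after their values were seen, and 4 of them are known to be induced by ecdysone. *Hr4*, a nuclear receptor, had 3.96, 6.91 and 7.90 in wing disc replicates 1, 2 and 3, and *Hr3*, another nuclear receptor, 1.37, 3.13 and 5.07, while all Mock RNAi values of both lay between 1.00 and 1.52. The transcription factor gene *Blimp-1* (5.31, 7.02 and 7.92) and the transporter gene *E23* (4.11, 5.30 and 6.20) had the same order over the disc pools.

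**Figure D1:**
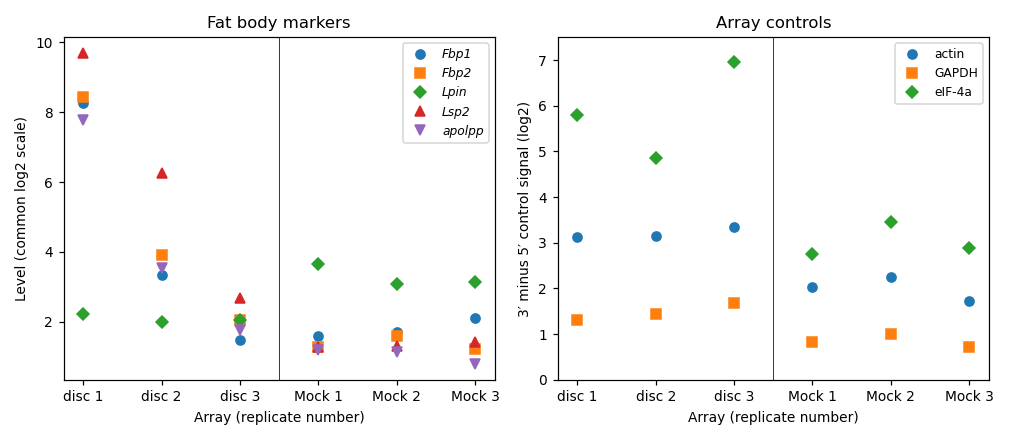
Checks of the 6 arrays. Left, levels (common log2 scale) of the 5 measured fat body markers in wing disc replicates 1 to 3 and Mock RNAi replicates 1 to 3. *Lsp2*, *Fbp1*, *Fbp2* and *apolpp* are highest in wing disc replicate 1 and lowest of the 3 discs in replicate 3. Right, 3′ minus 5′ log2 signal of the actin, GAPDH and eIF-4a array controls, where each control is higher in all 3 wing disc arrays than in all 3 Mock RNAi arrays.

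The labels were checked against defining markers of the disc. Of the chosen markers of the wing epithelium, *nub*, *vg*, *ap*, *salm*, *Dll* and *zfh2* were restricted to wing disc. *rn*, another of them, was below the boundary in all 6 arrays (2.41 to 2.99 in wing disc), and no level of *wg*, also chosen, is given here. Of 23 measured neuron markers, 17 lay below the boundary in all 6 arrays, *nSyb* and *brp* among them. *repo*, the defining glial transcription factor, was below it in all 6 as well, with 1.05 to 1.41 in wing disc and 1.95 to 3.36 in Mock RNAi. The neuron genes *cac* and *nrv3* were above the boundary in 2 of the 3 Mock RNAi arrays and in no wing disc array. Salivary gland markers were low in both tissues, with 8 of 9 below the boundary in all 6 arrays, and *ey*, *toy* and *gl*, which mark the eye disc, were below it too. The other 4 of 11 eye disc genes that were called, *eya*, *so*, *dac* and *Optix*, were all restricted to wing disc.

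Of 11982 genes, 1662 were called higher in wing disc (13.9%) and 1660 lower (13.9%), in all 3322 genes called in either direction (27.7%). The 3 wing disc and 3 Mock RNAi values did not overlap for 7445 genes (62.1%) and overlapped for 4 of the called ones. The calls included 581 genes restricted to wing disc (4.85%) and 324 restricted to Mock RNAi BG3 (2.7%). The shares of all genes given here are the measure for the counts of each list below. In bulk RNA, fewer cells of a type and less RNA per cell cannot be told apart. Most measured fat body markers were highest in wing disc replicate 1, and whether that pool held more fat body was not tested. Without this replicate, the counts were 1668 higher, 1664 lower, 597 restricted to disc and 336 restricted to BG3. On the deposited values, before the common normalization, the median difference of all genes was -1.33 and not -0.03, and 16.2% of the calls were higher in wing disc, against 50% on the common scale. With each array centred on its genes in the upper mode, that share was 58.3% and the median 0.47. On the deposited values the median difference also changed sign for the muscle precursor, planar polarity, EGF receptor, neuron, neuroblast, salivary gland, differentiated muscle, eye disc, PRC2, cohesin, insulin, cell cycle, heat shock, dosage and sex, disc and pupal cuticle, ribosomal protein, proteasome, chitin, Cpr and nucleoporin lists. The directions of these lists thus rest on bringing the arrays to a common scale. Among them, the neuron median also changed sign without Mock RNAi replicate 3, and the ribosomal protein median with the centred arrays. Both tissues expressed a large shared set. Of 4813 genes above the boundary in all 6 arrays, 2537 (52.7%) lay within 2-fold, 985 were called higher in discs and 1290 lower.

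**Figure D2:**
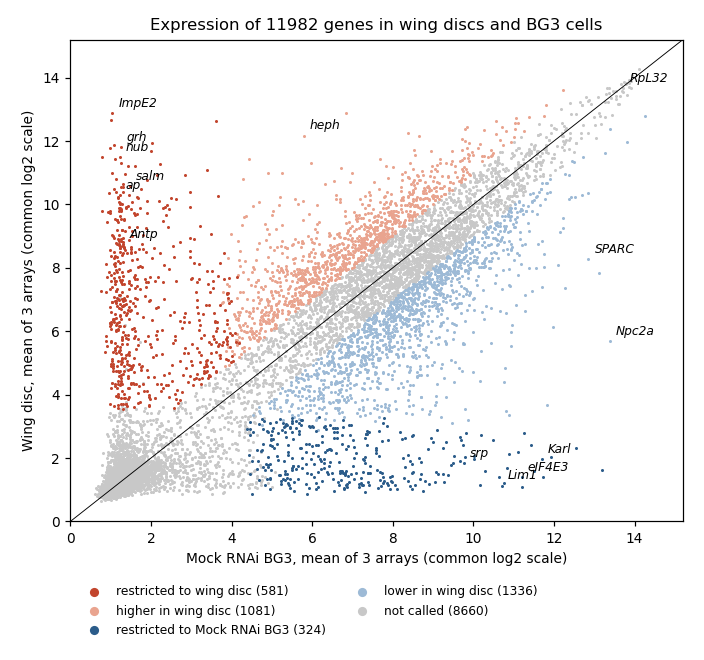
Mean level of each of 11982 genes in wing disc (vertical axis) against Mock RNAi BG3 (horizontal axis), 3 arrays each, common log2 scale, with the line of equal levels. Dark red points, the 581 genes restricted to wing disc, rise in a column at the left, and dark blue points, the 324 genes restricted to BG3, lie along the bottom.

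Of 14 measured compartment and axis selectors, 11 were called higher in wing disc, 9 of them restricted to it, and 1 was lower, with a median difference of 5.80 against -0.03 over all genes. The posterior selector *en* had 9.25, 9.29 and 9.40 in wing disc, against 2.61, 3.12 and 3.92 in Mock RNAi. Its sister gene *inv* had 7.15, 7.79 and 7.16 in wing disc, against 3.50, 3.27 and 3.86 in Mock RNAi. *hh*, the ligand that posterior cells send to anterior ones, had 8.60, 8.72 and 8.83 in wing disc, against 1.19, 1.39 and 1.07 in Mock RNAi. All 3 genes were thus in the upper mode in every disc array and below the boundary in every BG3 array. The Mock RNAi values of *en* and *inv* were nearer to the boundary than that of *hh*.

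*dpp*, the BMP ligand made along the compartment border, was restricted to wing disc at 7.40 ± 0.20 (SE, adjusted p = 7.41e-09 in limma). So were *salm* (9.09 ± 0.14), *salr* (5.51 ± 0.36) and *bi* (7.91 ± 0.19), transcription factor genes that Dpp signalling switches on in the pouch. *Dad*, which encodes an inhibitory Smad of the same pathway, was higher in disc by 5.41 ± 0.35, with 1 of 3 Mock RNAi arrays below the boundary. *ap*, the dorsal selector, had 10.21, 10.48 and 10.21 in wing disc, against 1.21, 1.27 and 1.19 in Mock RNAi, and *vg*, the wing selector, was restricted as well (8.33 ± 0.16). The values of all these genes were higher in every wing disc array than in any Mock RNAi array. Groups without overlap were found for 62.1% of all genes and for all but 4 of the 3322 called ones. *fng*, the glycosyltransferase that modifies Notch in dorsal cells, was above the boundary in both tissues and 16-fold higher in disc.

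3 members of the list did not follow. *ci*, the transcription factor of Hedgehog signalling, was high in both tissues, at 11.23, 11.38 and 11.22 in wing disc, against 10.33, 10.97 and 10.86 in Mock RNAi, a difference of 0.56 ± 0.16 that is under 2-fold. *ptc*, the Hedgehog receptor, was in the lower mode in all 6 arrays (1.66 to 1.73 in wing disc, 1.17 to 1.5 in Mock RNAi), so nothing can be said of its level. *ct*, a homeobox gene of the wing margin and of sensory organs, was lower in wing disc by 2.93 ± 0.23, with disc values of 3.34 to 3.51 at the boundary itself, and its call was lost when within-array ranks were compared.

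Regulators of single disc regions were nearly all restricted. Of 16 measured genes of the pouch, hinge and blade, 14 were called higher and all 14 were restricted to wing disc, with a median difference of 6.60. *nub*, a POU factor of the pouch and hinge, had 11.39, 11.69 and 11.39 in wing disc, against 1.65, 0.95 and 1.07 in Mock RNAi. It was among the 12 largest differences of all restricted genes, although its 2 other probe sets lay in the lower mode in both tissues. *Dr* (8.54 ± 0.17), *drm* (8.55 ± 0.14) and *dve* (7.54 ± 0.15) followed. *bs*, the serum response factor of intervein cells, differed by less than 2-fold (0.72 ± 0.16), and *rn*, a pouch gene, was below the boundary in all 6 arrays.

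Of 11 regulators of the notum and the peripodial layer, 9 were called higher in wing disc and 8 of them were restricted to it. *ara* and *caup*, the paired Iroquois genes of the notum, differed by 8.02 ± 0.17 and 8.81 ± 0.15, the LIM gene *tup* by 5.85 ± 0.17 and *Doc1*, a T-box gene, by 5.76 ± 0.18. The exception was *pnr*, a GATA factor of the dorsal notum, which was 2.64 ± 0.10 lower in wing disc, with 7.40, 7.47 and 7.5 in wing disc, against 10.21, 10.11 and 9.96 in Mock RNAi. BG3 cells thus had more *pnr* transcript than whole discs. *ush*, which encodes a partner protein of GATA factors, was above the boundary in both and not called (-0.67 ± 0.14). Proneural genes, which start sensory organs in small cell clusters, were called higher in 5 of 11 cases, all 5 restricted to wing disc. *ac* had 7.30 to 7.51 in wing disc and 1.02 to 1.09 in Mock RNAi, and *sc* 6.98 to 7.11 in wing disc and 1.09 to 1.46 in Mock RNAi.

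Of 11 measured tracheal and air sac genes 8 were called, and all 8 were restricted to wing disc, and none was lower. The list's largest differences were those of *pio* (9.95 ± 0.16), a matrix protein of the tracheal lumen, *Gasp* (9.0 ± 0.16), a chitin-binding protein, *vvl* (8.86 ± 0.25), a POU factor, and *serp* (8.55 ± 0.17), a chitin deacetylase. The other 3, *btl*, the FGF receptor that defines tracheal cells, *bnl*, its ligand, and *dysf*, were below the boundary in all 6 arrays, and several called members also belong to the epithelial matrix. Of 11 muscle precursor genes, 4 were higher and 4 lower. *twi*, which marks these precursors in the disc, had 5.52, 5.50 and 5.69 in wing disc, against 1.41, 1.55 and 2.10 in Mock RNAi, and *Him* was also restricted to disc (3.90 ± 0.16). *htl*, the FGF receptor of the mesoderm, *kirre*, a cell adhesion protein of fusing myoblasts, and *zfh1* were lower in disc, *kirre* by 31.0-fold.

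**Figure D3:**
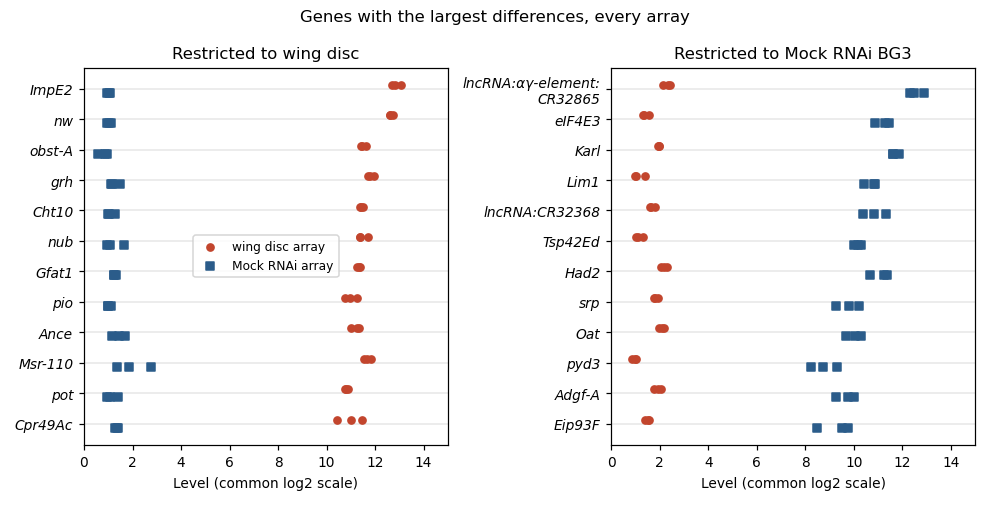
Levels (common log2 scale) in every array of the 12 named genes with the largest differences among those restricted to wing disc (left panel) and to Mock RNAi BG3 (right panel). Red circles are the 3 wing disc arrays and blue squares the 3 Mock RNAi arrays. Only genes whose groups did not overlap were eligible, so the gap between the groups follows from the choice.

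The 12 largest differences among named genes restricted to wing disc included genes of hormone response and of the apical matrix. *ImpE2*, an ecdysone-inducible gene of imaginal discs, had 12.71, 12.83 and 13.08 in wing disc, against 0.96, 1.09 and 1.05 in Mock RNAi (difference 11.83 ± 0.13, adjusted p = 3.33e-10). *nw*, named for the narrow wings of its mutants, differed by 11.64 ± 0.12, and *grh*, a transcription factor of epithelial barriers, by 10.58 ± 0.15. *obst-A*, a chitin-binding protein (10.69 ± 0.15), *Cht10*, a chitinase (10.33 ± 0.14), *Gfat1*, which makes the sugar precursor of chitin (10.06 ± 0.12), and the cuticle protein gene *Cpr49Ac* (9.62 ± 0.24) were also among the 12 largest. *pio* and *pot* encode membrane proteins with a zona pellucida domain that tie the epithelium to its apical matrix, and *pot* differed by 9.67 ± 0.16. *Ance*, an angiotensin-converting enzyme homologue (9.76 ± 0.17), and *Msr-110* (9.70 ± 0.31) completed the set. As for *nub*, the other probe sets of *Gfat1* and *pio* were in the lower mode in both tissues, and with the mean of a gene's probe sets the differences were 4.82 for *Gfat1*, 3.43 for *pio* and 3.73 for *nub*. *dve*, *kirre*, *ct* and *GstE9* each had a further probe set in the lower mode in both tissues as well. Of the genes known by annotation number alone, *CG15353* (10.82) and *CG31997* (10.80) differed most.

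Those leading genes led to further lists of the matrix, which were put together after values had been seen. Of 31 measured genes that make, change, bind or break down chitin, 15 were higher in wing disc, 14 of them restricted to it, and 2 lower. *kkv*, the chitin synthase of the epidermis, had 10.70, 10.53 and 10.47 in wing disc, against 1.08, 1.46 and 1.37 in Mock RNAi. *mmy*, which makes the activated sugar that chitin synthase and protein glycosylation share, went the other way and was 2.61 ± 0.14 lower in disc. All 7 called genes of 12 with a zona pellucida domain were restricted to disc, with *dpy*, the giant matrix protein of the wing, at 9.03, 8.59 and 8.33 in wing disc, against 1.40, 1.24 and 1.35 in Mock RNAi. Of 66 cuticle protein genes of the Cpr family, only 10 were called, all higher in disc, and 56 lay below the boundary in all 6 arrays.

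Of 15 ecdysone response genes, 8 were higher in wing disc and 3 lower. *ImpE1* (8.52 ± 0.33) and *ImpE3* (7.39 ± 0.30) were restricted to disc with *ImpE2*, and both had their lowest disc value in replicate 1. The 3 other probe sets of *ImpE1* were in or near the lower mode, and with the mean of all 4 its difference was 3.23. On the probe set used, *ImpE1* had 9.06, 10.14 and 10.46 in wing disc, against 1.10, 1.44 and 1.57 in Mock RNAi. *br*, an early-response transcription factor gene, was above the boundary in both tissues and 5.95-fold higher in disc. The receptor genes *EcR* (0.62 ± 0.29) and *usp* (-0.42 ± 0.16) were above the boundary in both tissues and differed by less than 2-fold. *Eip93F*, a transcription factor gene that ecdysone induces later, was restricted to BG3 cells, with 1.40, 1.55 and 1.53 in wing disc, against 8.49, 9.76 and 9.51 in Mock RNAi. *ftz-f1*, a nuclear receptor of the prepupa, was lower in disc as well (-2.94 ± 0.38), as was *ImpL2*, an insulin-binding protein (-2.84 ± 0.10). Members of the same hormone response were thus called in opposite directions.

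All 15 measured septate junction genes were above the boundary in all 6 arrays, and 13 were called higher in wing disc and none lower (median difference 3.16). Septate junctions are the paracellular seals of insect epithelia and glia. *Nrg*, an adhesion protein of the L1 family, had 11.25, 11.49 and 11.22 in wing disc, against 5.44, 6.52 and 5.93 in Mock RNAi, a 41.0-fold difference. *Gli* was 21.4-fold, *sinu*, a claudin, 13.8-fold and *Cont*, contactin, 13.4-fold higher in disc, while *crok* and *nrv2* were not called. Of 15 genes of adherens junctions and apical polarity, 10 were higher in disc and none lower. *crb*, the apical determinant, was restricted to disc (9.96, 10.04 and 9.92 in wing disc, against 2.78, 2.39 and 2.04 in Mock RNAi), and so was *shg*, E-cadherin (5.02 ± 0.21). *alpha-Cat*, which links cadherin to actin, was high in both tissues and differed by only 0.42 ± 0.09.

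Among 14 planar polarity and Fat-Hippo genes, 9 were higher in disc and none lower. *fj* (9.09 ± 0.16), *ds* (9.04 ± 0.16), *stan* (7.44 ± 0.15) and *dgo* (5.18 ± 0.16) were restricted to disc. These act in the exchange of direction cues between neighbouring cells. The kinase genes *wts* and *hpo* and the coactivator gene *yki* were above the boundary in both tissues, with differences of 1.25, 0.84 and 1.41.

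Of 16 Notch pathway genes, 12 were higher in wing disc and 1 lower, and 7 were restricted to disc. *Delta*, a Notch ligand, was above the boundary in both tissues, with 9.88, 10.14 and 9.96 in wing disc, against 4.93, 5.40 and 5.22 in Mock RNAi (28.1-fold). The Enhancer of split genes are direct Notch targets, and *E(spl)mdelta-HLH* (7.15 ± 0.18), *E(spl)malpha-BFM* (5.95 ± 0.14) and *E(spl)m2-BFM* (5.76 ± 0.15) were restricted to disc. *kuz*, the protease that activates Notch, did not pass the test (0.13 ± 0.25). In the EGF receptor pathway, the receptor gene *Egfr* was restricted to disc, at 8.61, 8.52 and 8.64 in wing disc, against 1.44, 1.73 and 1.32 in Mock RNAi, while the ligand gene *spi* was 4.55-fold lower in disc. The feedback inhibitors *sty* (-1.51 ± 0.32) and *kek1* (-2.23 ± 0.31) were lower in disc too. Of the few measured Wnt pathway genes, *Wnt6* was restricted to disc and the glypican gene *dlp* was 25.7-fold higher there.

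**Figure D4:**
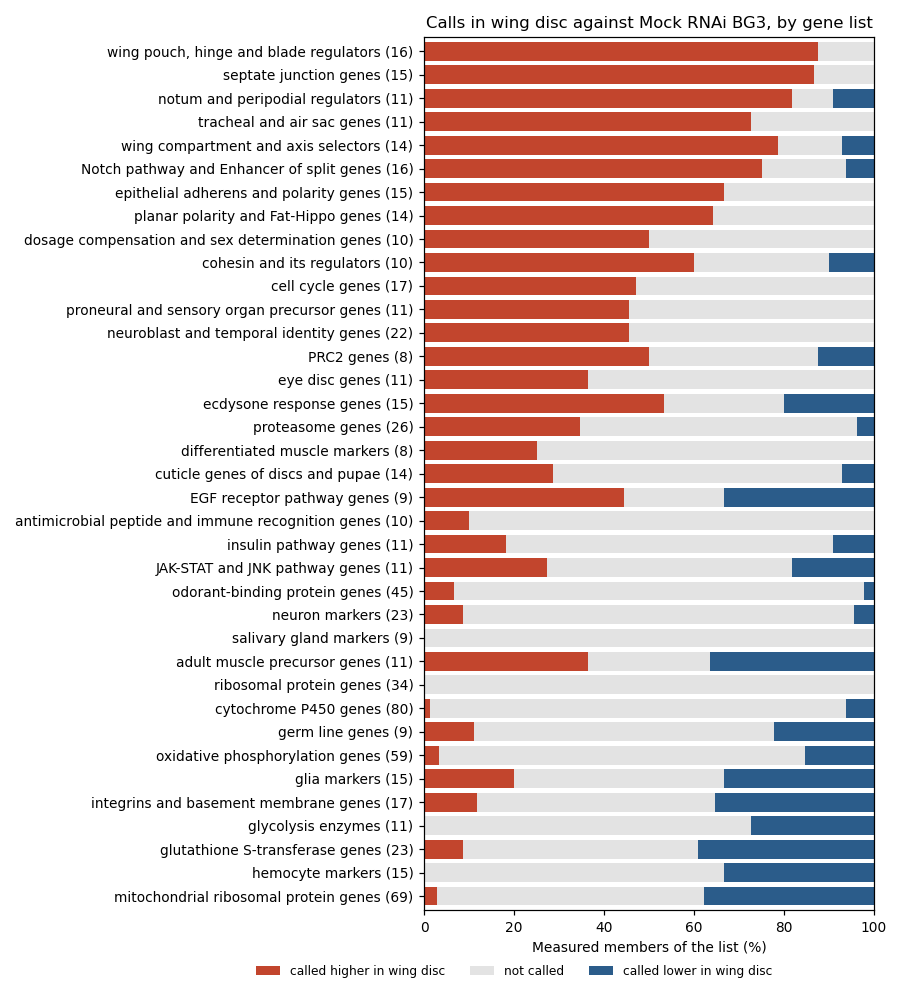
Share of the measured members of each gene list (number in parentheses, lists with at least 8 measured) that were called higher in wing disc (red, left), not called (grey) or called lower in wing disc (blue, right). Lists are ordered by the share higher minus the share lower, from the wing pouch regulators at the top, with 87.5% higher, to the mitochondrial ribosomal proteins at the bottom, with 37.7% lower. Over all genes 13.9% were called in each direction.

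Other genes above the boundary in all 6 arrays also had large differences. *heph*, an RNA-binding protein that represses splice sites, was 83.2-fold higher in wing disc (12.16, 12.36 and 12 in wing disc, against 5.79, 5.67 and 5.92 in Mock RNAi). *drl*, a Wnt receptor of the Ryk family, was 67.9-fold, *Inx2*, a gap junction innexin, 66.3-fold, *ihog*, a Hedgehog co-receptor, 53.7-fold and *ed*, an adhesion protein, 41.9-fold higher. *CG9628* (32.7-fold) and the cadherin gene *Cad87A* (24.0-fold) were also among the 10 largest. *Inx2* varied over the Mock RNAi arrays, with 12.77, 13.05 and 12.82 in wing disc, against 5.50, 7.53 and 7.46 in Mock RNAi. In the other direction, *ATPsynepsilonL*, a copy of an ATP synthase subunit gene, was 286-fold lower in disc, with disc values of 3.49 to 3.79 just above the boundary. *Npc2a*, a sterol carrier, had 5.97, 5.41 and 5.67 in wing disc, against 13.38, 13.29 and 13.48 in Mock RNAi (208-fold lower). *GstE6* was 83.0-fold, *Arc1*, a capsid-forming Gag-like protein, 57.5-fold and *squ*, a protein of the piRNA pathway, 42.6-fold lower in disc. The rest of the 10 largest in that direction were *CG13124*, *CG10863*, *CG34002*, *CG15784* and *CG9372*, between 39.9-fold and 75.5-fold lower.

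The 324 genes restricted to BG3 cells were led by other kinds of gene. The largest difference was that of *CG1092* (-11.57), known by its annotation number alone, and *CG5399* followed (-10.33). *lncRNA:alphagamma-element:CR32865*, a noncoding transcript of a heat shock locus, had 2.36, 2.15 and 2.43 in wing disc, against 12.90, 12.30 and 12.47 in Mock RNAi. The heat shock gene *Hsp68* was restricted to BG3 as well (-4.56 ± 0.74), but its Mock RNAi values were uneven (8.92, 6.02 and 5.55) and its call was lost when within-array ranks were compared. Other heat shock genes went either way, *Hsp26* lower and *Hsp27* and *Hsc70-4* higher in disc, but with the centred arrays *Hsp27* (0.85) and *Hsc70-4* (0.86) were no longer called, and both changed sign on the deposited scale. *eIF4E3*, a cap-binding translation factor (-9.79 ± 0.17), *Karl*, a lipocalin (-9.74 ± 0.12), *Tsp42Ed*, a tetraspanin (-9.02 ± 0.15), and the noncoding *lncRNA:CR32368* (-9.16 ± 0.23) were followed by *Had2* (-8.93 ± 0.19) and 3 enzymes, *Oat*, an ornithine aminotransferase (-7.93 ± 0.18), *pyd3*, which breaks down pyrimidines (-7.78 ± 0.26), and *Adgf-A*, a secreted adenosine deaminase (-7.76 ± 0.21).

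Among transcription factors, *Lim1*, a LIM-homeodomain gene, had 1.02, 0.96 and 1.40 in wing disc, against 10.41, 10.87 and 10.84 in Mock RNAi. *srp*, the GATA factor of blood cells and fat body, had 1.77, 1.93 and 1.80 in wing disc, against 9.26, 10.21 and 9.82 in Mock RNAi. Of 15 hemocyte markers none was higher in wing disc and 5 were lower. *NimC4*, a phagocytic receptor also known from glia (-7.70 ± 0.21), and *Pxn*, an extracellular peroxidase (-4.21 ± 0.16), were restricted to BG3 with *srp*, and *Col4a1* and the scavenger receptor gene *crq* were lower in disc. The second probe set of *Pxn* was in the lower mode in both tissues, and its call was lost with the mean of both. The defining hemocyte genes *Hml*, *He* and *NimC1* were below the boundary in all 6 arrays. The summed linear level of the list was 449 to 562 in wing disc and 4720 to 6000 in Mock RNAi. The median difference of the list was -0.12 and changed sign with the centred arrays.

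Of 17 integrin and basement membrane genes, 2 were higher and 6 lower in wing disc. Collagen IV and its binding protein were lower, with *vkg* at 7.72, 7.30 and 6.74 in wing disc, against 11.59, 11.67 and 11.12 in Mock RNAi, and *SPARC* at 8.46, 8.17 and 8.19 in wing disc, against 13.01, 12.72 and 12.84 in Mock RNAi. The differences were 18.5-fold for *vkg*, 17.6-fold for *Col4a1* and 23.9-fold for *SPARC*. The collagen genes were highest of the discs in replicate 1, the pool with the highest fat body markers, and the part of that tissue in their disc level was not tested. The matrix protease gene *Mmp2* (-4.05 ± 0.20) was restricted to BG3 with *Pxn*, and *trol*, perlecan, was 3.02-fold lower in disc. None of the 4 laminin genes was called. *LanB1* (-0.93 ± 0.15, adjusted p = 0.000723 in limma) and *wb* (-0.92 ± 0.18, adjusted p = 0.00242) passed the p threshold with differences under 2-fold, and *LanA* (0.07 ± 0.17) and *LanB2* (0.25 ± 0.17) did not. The integrin genes *mew* (4.77 ± 0.35) and *if* (2.03 ± 0.22) were higher in disc.

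Of 23 glutathione S-transferase genes, 9 were lower in wing disc (39.1%), 3 of them restricted to BG3, and 2 were higher (8.7%). Over all genes 13.9% were called in each direction. *GstE9* (-6.92 ± 0.41), *GstD5* (-5.54 ± 0.69) and *GstE7* (-5.45 ± 0.40) were restricted to BG3, each with its lowest Mock RNAi value in replicate 1. Genes of the GstD and GstE clusters are close in sequence, so their probe sets may share signal. Of 80 cytochrome P450 genes 67 were below the boundary in all 6 arrays, 5 were lower in disc (6.25%) and 1 was higher (1.25%). Both shares are under that of all genes. Of 15 glial genes 5 were lower (33.3%) and 3 higher (20%) in disc. *moody*, a receptor of the blood-brain barrier, was 26.9-fold lower in disc and *wrapper* was restricted to BG3 (-2.73 ± 0.18), while *bnb* was restricted to disc (8.05 ± 0.16). *egr*, the TNF ligand upstream of JNK, was 28.1-fold lower in disc, with 4.52, 5.14 and 4.87 in wing disc, against 10.06, 9.36 and 9.54 in Mock RNAi, and its receptor gene *wgn* was 2.82-fold lower.

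Markers of neural stem cells were not higher in the cell line of neural origin. Of 22 neuroblast and temporal identity genes, 10 were higher in wing disc, 6 of them restricted to it, and none was lower. *dpn* had 8.11, 8.18 and 8.09 in wing disc, against 1.20, 1.04 and 1.01 in Mock RNAi. *svp* and *dac* were restricted to disc (5.91 ± 0.16 and 4.91 ± 0.23), although 2 other probe sets of *svp* were in the lower mode in both tissues and its call was lost with the mean of the 3. *ase*, *wor*, *mira* and *pros*, which define neuroblasts, were below the boundary in all 6 arrays. Several list members, *grh*, *br*, *dpn* and *dac* among them, also act in discs. *elav*, used as a neuron marker, was above the boundary in both tissues and 4.01-fold higher in disc.

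The chromatin complexes that the study followed were expressed in both tissues. Of 6 measured genes of PRC1 and its partners, 5 were higher in wing disc and none lower, by 2.09-fold for *Pc*, 2.64-fold for *Psc*, 3.33-fold for *Sce*, 4.37-fold for *Scm* and 2.67-fold for *phol*, while *Sfmbt* differed by less than 2-fold (0.56 ± 0.09). *Pc*, the subunit that binds methylated histone H3, had 6.77, 6.83 and 6.58 in wing disc, against 5.62, 5.49 and 5.87 in Mock RNAi. The *Pc* and *Psc* calls were lost when within-array ranks were compared, that of *Pc* also without Mock RNAi replicate 2, and on the deposited scale *Pc* and *phol* changed sign. Of 8 PRC2 genes 4 were higher and 1 lower in disc. *Pcl* was 4.08-fold, *Jarid2* 3.72-fold, *Caf1-55* 2.63-fold and *Su(z)12* 2.41-fold higher, while the methyltransferase gene *E(z)* (-0.50 ± 0.12) and *esc* (0.05 ± 0.18) were not called, and *jing* was below the boundary in all 6 arrays. *escl*, the paralog of *esc*, was 4.59-fold lower in disc. *Caf1-55* and *Su(z)12* changed sign on the deposited scale.

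Of 10 genes of cohesin and its regulators, 6 were higher and 1, the acetyltransferase gene *san*, lower in wing disc. *SMC3*, a ring subunit, was 4.03-fold higher, with 7.99, 7.90 and 7.78 in wing disc, against 6.16, 5.63 and 5.85 in Mock RNAi. The removal factors *wapl* (3.86-fold) and *pds5* (3.74-fold) and the subunit *SA1* (2.56-fold) were higher as well, and *SMC1* (0.56 ± 0.16) was not called. *dmt* and *eco*, both near 2-fold, lost their calls when single arrays were left out, and *san* lost its call without Mock RNAi replicate 3 (-1.0). *SA1*, *pds5*, *dmt* and *eco* changed sign on the deposited scale. The probe set of the loader gene *Nipped-B* was in the lower mode in all 6 arrays (1.13 to 1.29 in wing disc, 1.09 to 1.33 in Mock RNAi), and *Mau2*, its partner, was not called. *vtd*, *ph-p*, *ph-d* and *Su(z)2* were not analysed here.

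Of the 4 HOX genes measured, *Antp*, which gives the thorax its identity, was restricted to wing disc, with 8.55, 9.07 and 8.63 in wing disc, against 1.33, 1.24 and 1.36 in Mock RNAi. *Dfd*, *Scr* and *pb*, genes of more anterior segments, were below the boundary in all 6 arrays. Sex differed between the groups, the cells being male and the discs mixed. *dsx* (3.73 ± 0.34) and *fru* (5.91 ± 0.23), transcription factor genes spliced by sex, were restricted to disc, but the call of *fru* was lost with the mean of its 7 probe sets. Of the dosage compensation genes, *msl-2*, made as protein only in males, did not pass the test (-0.16 ± 0.14), and *mof*, *msl-1* and *mle* were higher in disc by 3.22-fold, 2.88-fold and 2.05-fold. The splicing genes *Sxl* (0.70 ± 0.28), *tra* (0.76 ± 0.12) and *tra2* (-0.34 ± 0.11) and the complex member *msl-3* (-0.82 ± 0.20) were not called. The calls of *mof*, *msl-1* and *mle* were lost when within-array ranks were compared.

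Among genes of every cell, 0 of 34 cytoplasmic ribosomal protein genes were called, with a median difference of 0.05 that changed sign with the centred arrays and on the deposited values. In limma 19 of the 34 had an unadjusted p and 13 an adjusted p under 0.05, against 26.2% of all genes higher and 28.4% lower by the adjusted p, and 12 of these were above the boundary in both tissues and within 2-fold. Mitochondrial ribosomal protein genes were lower in wing disc in 26 of 69 cases and higher in 2, with a median difference of -0.85 against -0.21 for all genes above the boundary in both tissues. *mRpS35* (10.8-fold) and *mRpL17* (5.60-fold) had the largest differences of that list. Of 26 proteasome genes 9 were higher and 1 lower in disc, *Rpn2* at most with 4.13-fold. Of 17 cell cycle genes 8 were higher and none lower, among them *Rbf*, the retinoblastoma homologue (4.75-fold), and *CycE*, the S-phase cyclin (2.70-fold). Genes of glycolysis were lower in 3 of 11 cases, *Gpdh1* by 4.15-fold. That is near the share of all genes above the boundary in all 6 arrays, of which 1290 of 4813 were lower and 985 higher. The glycolysis median of -0.17 was also near that of those genes (-0.21).

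By chromosome arm, differences of genes above the boundary in all 6 arrays had medians of 0.02 on X (813 genes), -0.51 on 2L (875), -0.09 on 2R (976), -0.37 on 3L (939), -0.10 on 3R (1168) and -0.14 on 4 (29). The quartiles of the arms overlapped widely, from -0.87 to 1.01 on X and from -1.39 to 0.43 on 2L. Genes called higher were 16.2% of the X and 11.1% of 2L, against 13.9% of all.

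**Figure D5:**
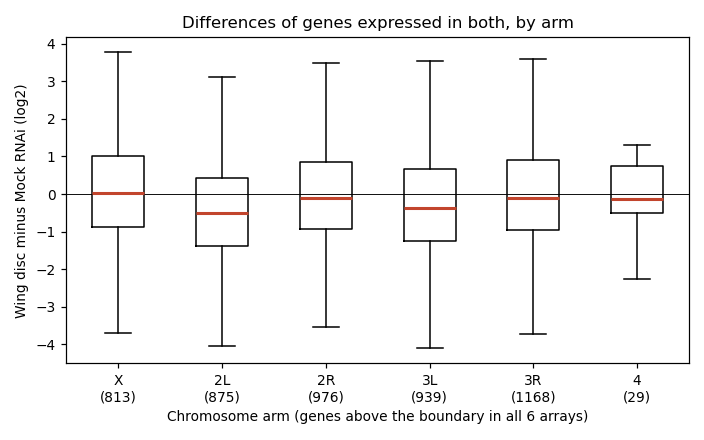
Wing disc minus Mock RNAi difference (log2) of genes above the boundary in all 6 arrays, by chromosome arm (number of genes in parentheses). Boxes span the quartiles, red lines are medians and whiskers reach the last value within 1.5 box lengths, with values beyond them not drawn. Medians lie between -0.51 on 2L and 0.02 on X.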

How the data were processed

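Total RNA (200 ng) was labelled and hybridized to Affymetrix Drosophila Genome 2.0 arrays. The authors deposited log2 values made with GCRMA, whose version and settings are not given in the sources used here. After 183 control rows and 1 blank row, 18768 probe sets remained, of which 13647 had 1 gene symbol, 402 several and 4719 none in the platform annotation. GCRMA removes background by probe sequence, so low values are compressed.

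The deposited medians were 0.827 to 0.842 in wing disc and 2.208 to 2.23 in Mock RNAi arrays. Quantile normalization over all probe sets (Python 3.11.15, numpy 2.4.6, scipy 1.17.1) put the 6 arrays on 1 scale. Each of 11982 genes was represented by whichever of its probe sets was brightest on average across the 9 arrays (1094 genes had several). Differences were fitted with lmFit and eBayes (limma 3.58.1, R 4.3.3) with a variance trend over the 6 arrays, with Benjamini-Hochberg adjustment over all genes. No replicate block was used. In a simulation fitted over all genes, changed genes were drawn only from those with a mean Mock RNAi level above 6. They were far fewer than the genes called in the data. At 2-fold, 47 of 100 genes changed by log2 1 and 97 of 100 changed by log2 2 were recovered, none in the wrong direction. A change of log2 1 lies at the fold threshold itself. Of the unchanged genes, 11 passed the adjusted p threshold and 2 were also at least 2-fold. The number of arrays limits the precision.

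The members and the gene lists were chosen with earlier results of these data known. Named genes were drawn from the 12 largest differences each way among restricted genes, 2 annotation numbers each way, the 10 largest each way among genes above the boundary in all 6 arrays, up to 4 called members of each list and all measured members of the selector, PRC1, PRC2, cohesin, HOX and dosage lists. The restricted genes and annotation numbers were taken only from genes whose groups did not overlap. Not every gene so chosen is printed, and other list members were named after their values were seen. Alternatives changed the normalization, the boundary, the fold threshold, the probe set rule, the variance prior and the arrays used.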

Additional observations from a re-analysis of the deposited data

How the results depend on the processing

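Leaving out single arrays gave 1636 to 1709 genes higher and 1642 to 1738 lower in wing disc, 582 to 614 restricted to wing disc and 326 to 364 restricted to Mock RNAi BG3. With the deposited values the counts were 727 higher and 3751 lower, with a fold threshold of 4 they were 837 and 842, and with no requirement on the boundary 599 genes were restricted to BG3. The other settings kept these 4 counts within 1.5 times. With the replicate block, 1663 genes were higher and 1660 lower, 581 and 324 were restricted, and 1662 of the higher calls were shared. Deviations of arrays with the same number correlated at 0.05 to 0.23 and those of other pairs at -0.21 to 0.07, and each wing disc array correlated best with its own number. That is a hint from the data, since the labels do not say that a number marks a shared day. On the deposited scale, whose median difference was -1.33, these differences changed sign: *ci* -1.74, *ptc* -1.01, *tud* -0.22, *Pc* -0.05, *Sfmbt* -1.30, *phol* -0.33, *Caf1-55* -0.75, *Su(z)12* -0.57, *esc* -1.15, *jing* -0.80, *SA1* -0.14, *SMC1* -1.04, *dmt* -0.56, *eco* -0.20, *pds5* -0.03, *pb* -1.07, *Akt* -0.04, *CycE* -0.50, *Hsc70-4* -0.95, *Hsp27* -0.96, *Sxl* -1.22, *mle* -0.40, *tra* -0.91, *Rpn2* -0.04, *Rpn5* -0.29, *Rpn1* -0.01, *Prosbeta2* -0.54 and *ATPsynC* -0.83. With centred arrays, whose median difference was 0.47, *E(z)* had 0.07, *Mau2* 0.15, *Nipped-B* 0.47, *Dfd* 0.01, *Scr* 0.15 and *msl-2* 0.49. With single arrays left out, *esc* ran from -0.06 to 0.2 and *Nipped-B* from -0.11 to 0.00378, both changing sign without wing disc replicate 1 and without Mock RNAi replicate 2. The search of promoters for motifs was not run. Signal near the boundary of the modes limits *ct*, *en*, *inv* and *Dad*. The cause of these changes was not tested beyond the shift of scale.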

Other observations

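The piRNA pathway, which silences transposons and is best known from the germ line and its support cells, was put together as a list after values had been seen. Of 33 measured genes, 15 were lower in wing disc, 8 of them restricted to Mock RNAi BG3, and 2 were higher, against 13.9% of all genes in each direction. *krimp*, a Tudor protein of the pathway, had 1.94, 2.22 and 1.54 in wing disc, against 8.37, 8.41 and 8.54 in Mock RNAi. *fs(1)Yb* had 1.26, 0.97 and 1.04 in wing disc, against 7.59, 7.05 and 6.84 in Mock RNAi, and *aub*, a Piwi-family protein, 1.46, 1.80 and 1.98 in wing disc, against 7.57, 6.98 and 6.45 in Mock RNAi. The groups did not overlap for these 3 genes, which held for 62.1% of all genes and for all but 4 of the 3322 called ones. *piwi* and *vas* were below the boundary in all 6 arrays, and the helicase gene *armi* (2.14-fold) and *tud* (3.09-fold) were higher in disc.

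Further lists of the same origin differed in direction. Of 20 nucleoporin genes 9 were higher in wing disc and none lower, *Nup153* by 6.84-fold and *Nup188* by 4.32-fold, but their median changed sign on the deposited scale. Of 10 peroxin genes of peroxisome assembly 5 were lower and none higher. Of 10 ALG genes, which build the sugar chain for N-glycosylation, 6 were lower and none higher, *Alg3* by 5.98-fold and *Alg7* by 5.73-fold. Over all genes 13.9% were called in each direction. Most members of these lists were above the boundary in both tissues, and of the 4813 genes above it in all 6 arrays 985 were higher and 1290 lower.

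The Ph RNAi arrays share the Mock RNAi arrays as their control, so their levels are given only as values, on a scale set over all 9 arrays. Of 75 named genes restricted to disc, 10 were above the boundary in all 3 Ph RNAi arrays, 10 in some and 55 in none. All 25 named genes restricted to BG3 were above it in all 3. Disc-restricted genes were chosen for Mock RNAi values below the boundary, so a Ph RNAi array could differ only by lying above it. BG3-restricted genes could differ only by lying below it. The named genes are a picked part of the restricted ones, and no share over all restricted genes or all genes is given. *Optix* and *dpp* are from the 10 above in all 3, and *en* is from the 55 above in none. *Optix* averaged 6.29 ± 0.08 in wing disc, 7.49 ± 0.32 in Ph RNAi and 1.81 ± 0.08 in Mock RNAi cells (SD, n = 3 each). *dpp* averaged 9.0 ± 0.23 in wing disc, 6.10 ± 1.13 in Ph RNAi and 1.52 ± 0.30 in Mock RNAi cells. *en* averaged 9.63 ± 0.08 in wing disc and was below the boundary in both cell groups, with 2.95 ± 0.32 in Ph RNAi and 3.37 ± 0.64 in Mock RNAi cells. *inv* averaged 7.61 ± 0.39 in wing disc, 4.59 ± 0.34 in Ph RNAi (2 arrays above the boundary) and 3.68 ± 0.29 in Mock RNAi cells. The paper cites earlier work in which both mRNAs were modest in BG3 cells and rose strongly after depletion of cohesin or PRC1. The *en* values here lay below the boundary in both cell groups, where a level carries little information, so they cannot decide on such a rise. The mean of *inv* was higher in Ph RNAi than in Mock RNAi cells, a difference that was not tested.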
